A study of Mus musculus with 22 samples.

Results

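The genes described here are the olfactory and vomeronasal receptor genes of the mouse autosomes, 2035 of the 46709 genes and pseudogenes that RefSeq places on chromosomes 1 to 19 of GRCm38 (mm10). A gene was taken when its symbol starts with Olfr (odorant receptors, 1419 genes), Vmn1r (type 1 vomeronasal receptors, 366 genes) or Vmn2r (type 2 vomeronasal receptors, 250 genes), and its window was the gene body with 1 kb on either side. RefSeq lists 1454 of them as protein coding and 580 as pseudogenes, and 1 has another type. Chromosome 7 holds 569 of the genes and chromosome 2 holds 379. The question put to the data was where peaks of H3K9me3, ATRX, DNA G-quadruplexes (G4) and open chromatin fell in these genes, by family, by cluster, by condition and by replicate, and how the genes compared with the 44674 other genes.

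Odorant receptors are the G protein-coupled receptors with which olfactory neurons detect smells, and the vomeronasal receptors serve the vomeronasal organ, which detects pheromones and other social cues. The genes lie in clusters along the chromosomes, each mature olfactory neuron transcribes a single odorant receptor allele, and the other receptor genes of that neuron are packed in heterochromatin that carries H3K9me3, a histone mark of silent chromatin. ATRX is a chromatin remodeler that binds heterochromatin and repeats and helps to deposit histone H3.3, G4 are four-stranded folds of guanine-rich DNA, and ATAC-seq marks DNA that a transposase can reach.

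All samples were 16.7 mouse embryonic stem (ES) cells, a female hybrid line of CAST/Ei and 129/Sv/Jae background, collected 12 h after transfection with antisense LNA gapmers, short oligonucleotides that direct cleavage of their target RNA. Scramble KD cells received a gapmer with a scrambled sequence. TERRA KD cells received one against TERRA, the RNA of telomeric repeats whose transcription begins in subtelomeric regions. Both were grown in serum medium with LIF after removal of the feeder cells. Each of the 4 assays had 2 scramble KD and 2 TERRA KD libraries, 16 peak lists in all, and 1 line stands for ES cells. The study calls the replicates biological, but the sample labels do not say that they came from separate cultures, so the p values below measure the spread between these samples, which may be technical. TERRA itself was not measured in these files, and neither was the expression of the receptors. ATAC peaks lay within 1 kb of the start of 4 of 6 ES cell genes (Pou5f1, Sox2, Klf4, Zfp42, Nanog and Esrrb) in all 4 libraries and of all 6 in at least 1.

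After removal of duplicates, an ATRX library held 4104486 to 15506154 tags and gave 7321 to 41384 peaks. The library with the fewest tags, TERRA KD replicate 1, gave the most peaks. The H3K9me3 libraries held 5435286 to 13898785 tags with 25490 to 76213 peaks, with more tags and fewer peaks in replicate 1 than in replicate 2. The inputs of both assays held 3366921 tags in scramble KD and 3374834 in TERRA KD in replicate 1. In replicate 2 they held 19735093 and 28622103. The range was 2961038 to 24588605 tags and 140119 to 389434 peaks in G4 libraries, and 5976014 to 7883648 tags and 78571 to 103911 peaks in ATAC libraries. Both G4 libraries of a condition were called against inputs of equal size, 23359214 tags in scramble KD and 19824848 in TERRA KD. The part of the input in the recurrence of G4 peaks was not tested. A gene without a peak is a gene where enrichment was not detectable at that depth. The H3K9me3 libraries of replicate 1 and replicate 2 stood apart: their median peak length was 2404 to 3119.5 bp in replicate 1 and 491 to 515 bp in replicate 2, so each value is given per library. In these bulk samples, fewer cells carrying a mark and less of the mark per cell cannot be told apart.

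A few stretches of sequence show what lay under peaks in these genes. Each is the middle of the stretch shared by the peaks of a gene in the libraries named, read from the NCBI RefSeq copy of GRCm38 on the plus strand, with runs of at least 3 G or 3 C in capitals, since such runs can form G4 on one of the strands. The first pair lay under G4 peaks in all 4 libraries: chr4:52969876-52969995, upstream of Olfr270, and chr17:37133286-37133585, upstream of Olfr91. Olfr91 was added after its values were seen, as the best-ranked gene outside Vmn2r with the G4 motif in the central 300 bases of its shared stretch (4 runs of at least 3 G with loops of up to 7 bases).

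Olfr270 G4: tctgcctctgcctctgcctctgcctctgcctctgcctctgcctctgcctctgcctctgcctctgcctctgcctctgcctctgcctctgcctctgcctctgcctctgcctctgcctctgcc

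Olfr91 G4: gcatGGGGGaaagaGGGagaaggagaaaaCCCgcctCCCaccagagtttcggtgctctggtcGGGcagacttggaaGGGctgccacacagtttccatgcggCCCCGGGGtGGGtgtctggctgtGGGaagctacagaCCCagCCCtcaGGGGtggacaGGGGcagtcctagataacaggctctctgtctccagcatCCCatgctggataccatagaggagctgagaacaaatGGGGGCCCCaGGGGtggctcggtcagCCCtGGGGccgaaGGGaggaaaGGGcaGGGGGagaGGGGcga

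The Olfr270 stretch is a repeat of tctgcc with no run of 3 G or 3 C and no motif, while the Olfr91 stretch holds 16 runs of G and 8 runs of C. The next pair lay at gene starts, Vmn1r4 (chr6:56923876-56924175) under ATAC peaks and Vmn2r29 (chr7:7277942-7278241) under ATRX peaks, both in all 4 libraries.

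Vmn1r4 ATAC: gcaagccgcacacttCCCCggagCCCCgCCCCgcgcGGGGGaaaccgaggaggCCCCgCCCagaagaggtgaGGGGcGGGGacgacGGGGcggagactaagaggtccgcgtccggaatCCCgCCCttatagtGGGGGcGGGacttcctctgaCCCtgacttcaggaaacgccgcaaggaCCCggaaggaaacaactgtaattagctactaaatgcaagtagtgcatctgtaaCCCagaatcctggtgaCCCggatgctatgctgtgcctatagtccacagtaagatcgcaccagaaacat

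Vmn2r29 ATRX: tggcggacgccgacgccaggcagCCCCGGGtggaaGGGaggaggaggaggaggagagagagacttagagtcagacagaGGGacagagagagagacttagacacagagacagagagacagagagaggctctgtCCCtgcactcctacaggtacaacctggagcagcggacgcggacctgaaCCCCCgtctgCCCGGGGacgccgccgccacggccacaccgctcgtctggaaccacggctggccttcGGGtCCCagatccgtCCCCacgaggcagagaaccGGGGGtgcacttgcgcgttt

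They hold 22 and 23 CpG in 300 bases, with a GC content of 60.3% and 65.3%. The 300 bases around the annotated starts of receptor genes had a median of 1 CpG, as described further on. Another gene also lies in each of these windows, Nt5c3 in that of Vmn1r4 and Gm18190 in that of Vmn2r29. To which gene the printed stretches belong was not tested. The last set shows ATRX peaks of a single condition, in both TERRA KD libraries at Olfr373 (chr8:72099505-72099804) and in both scramble KD libraries at Olfr460 (chr6:40570517-40570816), and the H3K9me3 peaks of all 4 libraries beside Olfr1388 (chr11:49445275-49445574).

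Olfr373 ATRX: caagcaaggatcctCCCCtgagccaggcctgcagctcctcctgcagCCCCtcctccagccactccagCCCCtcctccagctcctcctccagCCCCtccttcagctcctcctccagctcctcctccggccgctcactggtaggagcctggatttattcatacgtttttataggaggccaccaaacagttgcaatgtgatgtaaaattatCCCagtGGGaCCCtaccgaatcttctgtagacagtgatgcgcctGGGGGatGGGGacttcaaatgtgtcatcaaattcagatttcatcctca

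Olfr460 ATRX: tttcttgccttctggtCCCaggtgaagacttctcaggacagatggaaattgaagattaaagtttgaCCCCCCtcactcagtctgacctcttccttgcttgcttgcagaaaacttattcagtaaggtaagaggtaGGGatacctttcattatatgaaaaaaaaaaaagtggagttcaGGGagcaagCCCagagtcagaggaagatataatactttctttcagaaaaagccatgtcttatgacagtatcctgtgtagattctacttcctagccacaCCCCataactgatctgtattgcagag

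Olfr1388 H3K9me3: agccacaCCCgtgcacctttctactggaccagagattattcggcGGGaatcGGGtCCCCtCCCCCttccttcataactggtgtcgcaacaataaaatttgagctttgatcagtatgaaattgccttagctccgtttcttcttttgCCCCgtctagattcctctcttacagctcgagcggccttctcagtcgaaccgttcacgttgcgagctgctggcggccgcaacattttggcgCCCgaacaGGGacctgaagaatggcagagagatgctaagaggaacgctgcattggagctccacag

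The Olfr1388 stretch is soft-masked over 100% of its bases, which means that the reference marks it as repeat sequence, and those at Olfr373 and Olfr460 over 20.3% and 18.3%.

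Most receptor genes carried no peak at all. Of the 2035 genes, 1128 (55.4%) had no peak of any assay in any of the 16 libraries. The share was 59.1% of Olfr, 63.1% of Vmn1r and 23.6% of Vmn2r genes. It was not counted over all genes. By assay, 19.5% of receptor genes and 30.2% of all 46709 genes had an H3K9me3 peak in at least 1 library. The shares were 10.5% and 39.2% for ATRX, 31.3% and 82.8% for G4, and 10.4% and 61.6% for ATAC. They are not matched for gene length, whose median was 945 bp for receptor genes and 6921.5 bp for other genes. Vmn2r genes span many exons and have a median length of 16090 bp, against 945 bp for Olfr and 921 bp for Vmn1r genes, whose coding sequence lies in 1 exon, so a Vmn2r window offers more room for a peak. For this reason families were compared by the share of window bases under peaks, and also over equal windows of 1 kb on either side of the gene start. The plot of libraries per gene gives how often a peak recurred.

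**Figure D1:**
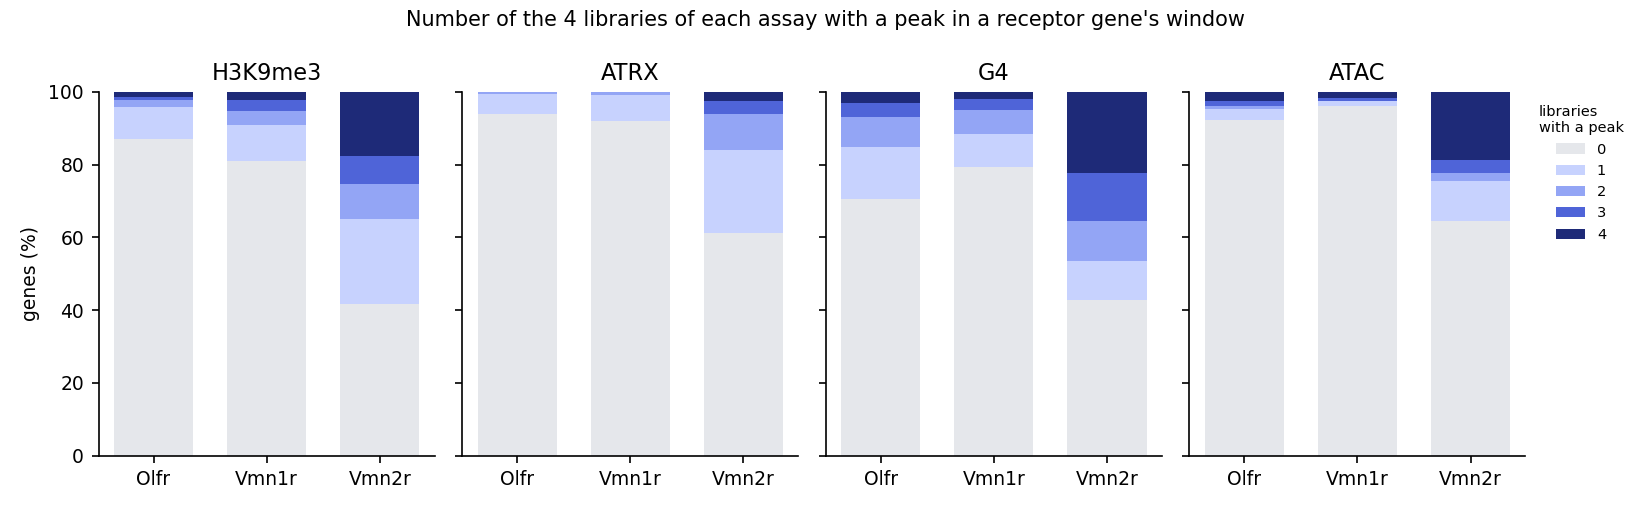
Share of the 1419 Olfr, 366 Vmn1r and 250 Vmn2r genes (y axis, percent) with a peak in 0 to 4 of the 4 libraries of H3K9me3, ATRX, G4 and ATAC (colour). Genes with no H3K9me3 peak made up 87.2% of Olfr, 81.1% of Vmn1r and 41.6% of Vmn2r genes, and no Olfr or Vmn1r gene had an ATRX peak in all 4 libraries.

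H3K9me3 covered more of the receptor genes than of other genes, and the cover lay mainly in the vomeronasal families. In scramble KD replicates 1 and 2 and TERRA KD replicates 1 and 2, H3K9me3 peaks covered 3.78%, 2.74%, 5.37% and 2.32% of the receptor windows and 2.16%, 1.16%, 2.54% and 1.30% of the windows of other genes. The receptor value was above the other genes' value in each library, with a mean log2 ratio of 0.99 ± 0.21 (SD, n = 4 libraries), or 1.99-fold. An exact sign-flip permutation test over the 4 libraries, two-sided, gave p = 0.13, the smallest it can give with 4.

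By family, the Vmn2r genes stood highest, with 6.45%, 4.34%, 8.51% and 3.84% of their bases under H3K9me3 peaks in the same order of libraries. Vmn1r genes had 2.50%, 1.93%, 4.09% and 1.45%, and Olfr genes 1.19%, 1.20%, 2.27% and 0.89%. The order Vmn2r, Vmn1r, Olfr held within every library, although the families' ranges over libraries overlapped. Against other genes the mean log2 ratio was 1.70 ± 0.16 for Vmn2r and 0.45 ± 0.31 for Vmn1r, both higher in 4 of 4 libraries, and −0.38 ± 0.40 for Olfr, which was higher in 1 of 4 (SD, n = 4). Vomeronasal genes exceeded Olfr genes in 4 of 4 libraries, by a mean log2 ratio of 1.92 ± 0.25, or 3.80-fold (exact sign-flip permutation test, two-sided, p = 0.13, the smallest possible). With peaks of a −log10 p of at least 5 only, this log2 ratio was 3.02, with 2.29 and 4.58 in scramble KD, against 1.87 and 3.34 in TERRA KD.

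By number of genes, H3K9me3 peaks were found in 60 and 118 Vmn2r genes in scramble KD replicates 1 and 2, and in 71 and 91 in TERRA KD. The counts were 41, 109, 68 and 75 for Olfr genes and 23, 36, 36 and 34 for Vmn1r genes, in the same order of libraries. The Vmn2r family thus gave the most genes in each of the 4 libraries while being the smallest family. By share of genes the comparison with other genes went the opposite way from that by bases: 6.09%, 12.9%, 8.60% and 9.83% of the receptor genes had an H3K9me3 peak, below the 14.2%, 20.1%, 13.6% and 20.6% of other genes in every library. Of the families, Vmn2r was above other genes, with 24% and 47.2% in scramble KD, against 28.4% and 36.4% in TERRA KD, and Olfr and Vmn1r were below them in every library. These shares are not matched for gene length. Within Vmn2r, genes with H3K9me3 in all 4 libraries had a median length of 37294 bp and those with none one of 3220 bp, and 71.2% of the latter were pseudogenes. In Vmn2r windows, 79.3% to 92.8% of the H3K9me3 peaks were centred in the gene body, and in Olfr windows, whose genes are short beside the flanks, 21.6% to 49.5%.

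Part of this cover lay where receptor windows hold other genes. Windows of 142 members, 52 of them Vmn2r, also hold a gene that is no receptor, and 15 members are longer than 50 kb. Over the 1893 members without such a neighbour, a set taken after seeing the data, the log2 ratio of receptor to other genes was 0.09, 0.73, 0.59 and 0.18, a mean of 0.40 ± 0.31, still higher in 4 of 4 libraries. Without the 15 long members the mean was also 0.40. In that restricted set of 1893, Vmn2r genes had a mean log2 ratio of 0.99 and Vmn1r genes one of 0.51, each higher in 4 of 4 libraries, and vomeronasal genes exceeded Olfr genes by 1.30 on the log2 scale.

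At the gene start the comparison with other genes turned. Within 1 kb of the start, H3K9me3 peaks covered 1.47%, 1.37%, 2.15% and 1.01% of receptor bases and 2.49%, 0.99%, 2.63% and 1.26% of those of other genes, a mean log2 ratio of −0.23 ± 0.51 that was positive in 1 of 4 libraries. Vmn2r starts remained above other genes, by 1.15 ± 0.52 on the log2 scale in 4 of 4 libraries, and vomeronasal starts above Olfr starts, by 1.35 ± 0.14. Many Olfr and Vmn1r models in RefSeq hold the coding sequence alone, so for them the annotated start is often the start codon and not the promoter.

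**Figure D2:**
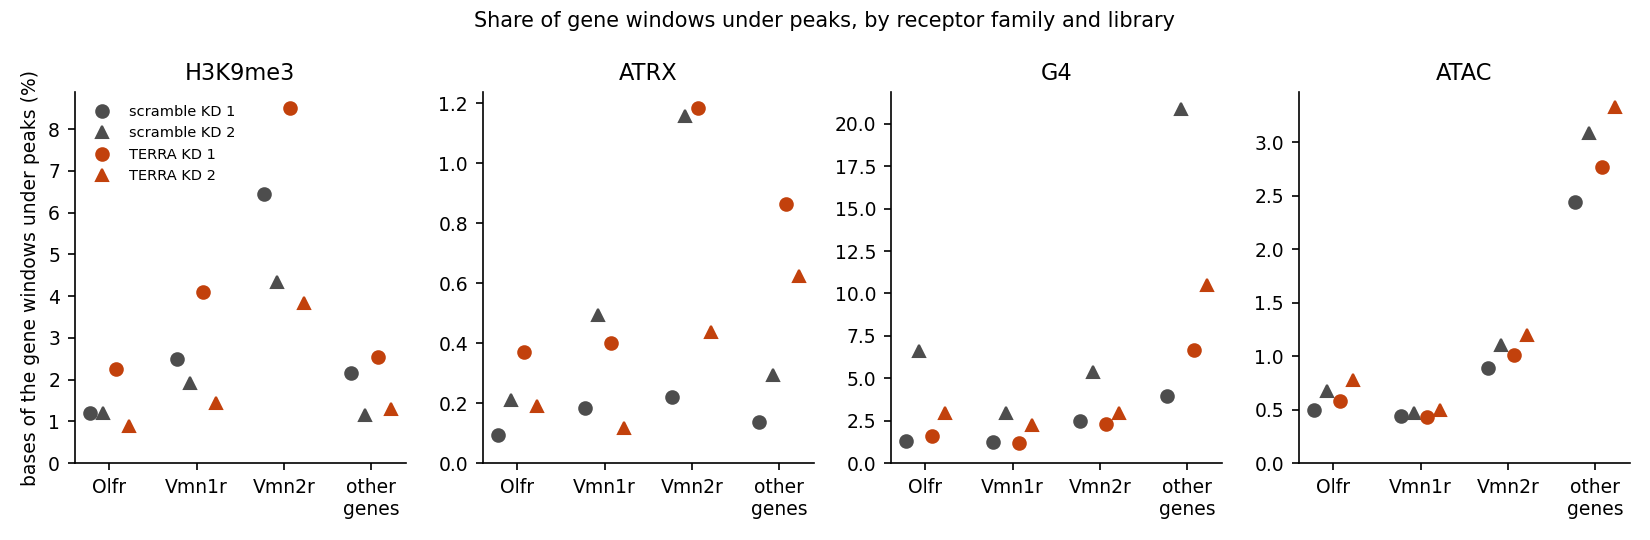
Percent of bases of the gene windows under peaks (y axis) for Olfr, Vmn1r, Vmn2r and other genes in each assay, 1 point per library: grey scramble KD, orange TERRA KD, circles replicate 1 and triangles replicate 2. H3K9me3 was highest over Vmn2r genes in every library (3.84% to 8.51%), and G4 and ATAC were lower over each receptor family than over other genes in every library.

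ATRX peaks were few in receptor genes. Vmn2r genes had the most genes with a peak in each library, 20, 61, 45 and 32, against 12, 21, 42 and 22 Olfr genes and 8, 9, 12 and 3 Vmn1r genes. Together these were 1.97%, 4.47%, 4.86% and 2.80% of the receptor genes, while 7.21%, 9.62%, 27.6% and 19.6% of other genes had one. In the same order, scramble KD replicates 1 and 2 and TERRA KD replicates 1 and 2, ATRX peaks covered 0.162%, 0.681%, 0.753% and 0.299% of the receptor windows, against 0.137%, 0.294%, 0.865% and 0.625% for other genes. The log2 ratio was thus 0.24 and 1.21 in scramble KD, against −0.20 and −1.06 in TERRA KD. Receptor genes lay above other genes in both scramble KD libraries and below them in both TERRA KD libraries, and the mean of 0.05 ± 0.95 was smaller than the spread (exact sign-flip permutation test, two-sided, p = 0.875). The side on which TERRA KD replicate 1 lay depended on the setting. Its log2 ratio was 1.01 with peaks of a −log10 p of at least 5, where the mean rose to 1.19 (exact sign-flip permutation test, p = 0.25), and 0.14 for gene bodies without the flanks, where the mean was 0.29.

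The difference of the ATRX ratio between conditions, TERRA KD minus scramble KD, was −1.36 on the log2 scale, with no overlap of the conditions, which did not overlap under those settings either. An exact permutation test of 2 against 2, two-sided, gave p = 0.33, which is the smallest that design allows. Other genes had more ATRX cover in TERRA KD in both replicate numbers, while the receptor value was higher in TERRA KD in replicate 1 and lower in replicate 2. Over the 1893 members without another gene in the window the same difference was −1.21, and scramble KD replicate 2 alone lay above other genes. By family, Vmn2r genes held more ATRX cover than Olfr genes in 4 of 4 libraries, by 1.64 ± 0.58 on the log2 scale, and Olfr genes held less than other genes in 4 of 4, by −0.99 ± 0.58. For all receptor genes with lists of equal length, described further on, the ATRX ratios of the conditions did overlap. ATRX peaks then covered 0.287% of receptor and 0.175% of other windows in TERRA KD replicate 1. In scramble KD replicate 1 they covered 0.162% and 0.137%.

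G4 and ATAC peaks were both sparse in receptor genes. G4 peaks covered 1.86%, 5.67%, 1.89% and 2.91% of receptor bases and 3.96%, 20.9%, 6.68% and 10.5% of those of other genes, in scramble KD replicates 1 and 2 and TERRA KD replicates 1 and 2. ATAC peaks covered 0.675%, 0.854%, 0.771% and 0.948% against 2.44%, 3.08%, 2.77% and 3.32%. Receptor genes lay below other genes in every library, by a mean log2 ratio of −1.66 ± 0.38 for G4 and −1.84 ± 0.02 for ATAC (exact sign-flip permutation test, two-sided, p = 0.13 for each, the smallest possible). Each of the 3 families lay below other genes in 4 of 4 libraries of both assays. Over the 1893 members without another gene in the window the mean for ATAC was −2.46.

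The gap was wider at the gene start than over whole windows. ATAC peaks touched 2.16%, 2.80%, 2.21% and 2.90% of receptor starts and 40.5%, 44.2%, 43.1% and 45.3% of the starts of other genes. In covered bases this was a mean log2 ratio of −4.69 ± 0.12, and for G4 it was −2.86 ± 0.71, both negative in 4 of 4 libraries. The annotated start of a receptor gene rarely carried an ATAC peak in these cells, in all 3 families: the shares ran from 2.18% to 3.17% for Olfr, stood at 1.09% for Vmn1r and ran from 3.6% to 4.00% for Vmn2r. For many Olfr and Vmn1r genes that start is the start codon, so these values need not describe their promoters.

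**Figure D3:**
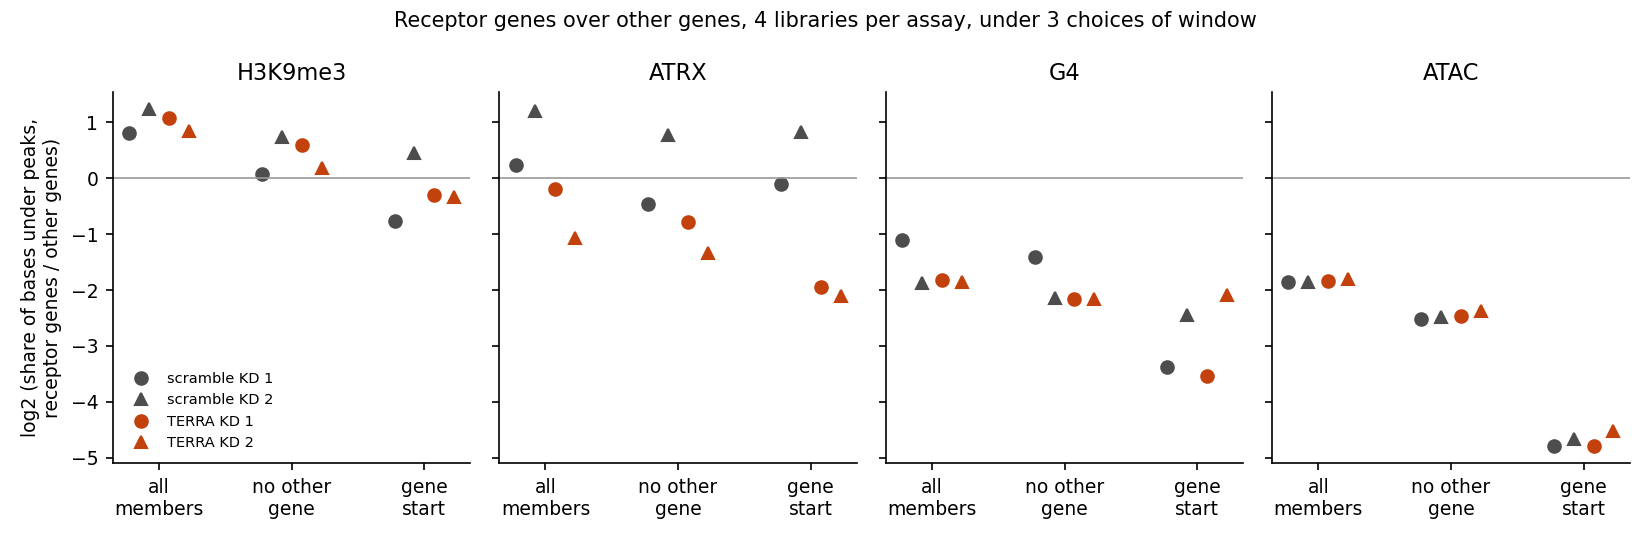
Log2 ratio of the share of bases under peaks, receptor genes over other genes (y axis), in the 4 libraries of each assay for all members, for the 1893 members with no other gene in the window, and for 1 kb on either side of the gene start. H3K9me3 lies above 0 for the gene-body windows and straddles 0 at the gene start, ATRX falls on both sides of 0, and G4 and ATAC lie below 0 throughout.

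ATAC peaks in receptor windows ranked near the middle of their lists. In the 4 ATAC lists, the 161 to 227 peaks in receptor windows had a median rank of 43.4% to 52.6% from the top of the list, and those of other genes 48.4% to 49.7%. Receptor windows held 0.20% to 0.22% of all ATAC peaks and 0.55% to 0.95% of all H3K9me3 peaks. Of the ATRX peaks in receptor windows, 20.5%, 22.0%, 50.6% and 25% overlapped an H3K9me3 peak of the same condition and replicate number, in the order scramble KD replicates 1 and 2 and TERRA KD replicates 1 and 2, against 13.1%, 11.1%, 18.1% and 9.77% of the ATRX peaks of other genes. The share was higher for receptors in all 4 libraries. It was 65.3% for the Vmn2r genes in TERRA KD replicate 1, the library with the widest H3K9me3 peaks. The ATRX and H3K9me3 lists of a condition and replicate number were called against inputs with the same number of tags. The part of the input in this overlap was not tested.

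ATAC and G4 peaks in receptor windows also met H3K9me3 more often than those of other genes in every library. The shares of ATAC peaks were 12.4%, 10.9%, 16.8% and 12.3% in receptors and 2.83%, 1.63%, 3.28% and 2.49% in other genes, in scramble KD replicates 1 and 2 and TERRA KD replicates 1 and 2. For G4 peaks they were 8.16%, 9.001%, 20.2% and 10.6% against 3.51%, 2.58%, 3.73% and 3.34%. H3K9me3 cover itself was higher in receptor windows in each library, and its part in these shares was not tested.

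Sequence features differed between the families and from other genes. Receptor windows had a GC content of 37.7% and other genes one of 43.1%. Soft-masked repeats made up 24.8% of Olfr, 30.9% of Vmn1r and 44.1% of Vmn2r bases, against 27.9% for other genes, which is the same order of families as for H3K9me3. Within families, the median soft-masked share was taken for genes with no H3K9me3 peak and for genes with one in all 4 libraries. It was 19.5% and 41.5% for Olfr and 28.2% and 47.4% for Vmn2r, but 27.8% in both sets for Vmn1r. Stretches of 150 bases, the read length, that occur more than once in the genome made up 2.82% of those sampled in Olfr windows, 20.5% in Vmn1r and 20.9% in Vmn2r windows, against 3.15% for other genes, and a read of that length from such a stretch matches more than 1 place. Reads were aligned by Bowtie2 at its default setting, which puts a read with several equal matches at one of them, and its part in the family values was not tested.

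Inside receptor windows, the bases under H3K9me3 peaks held more repeat sequence than those outside them. The bases under peaks were soft-masked to 63.0% and 54.7% in scramble KD, with 59.8% and 60.3% in TERRA KD, while the bases outside peaks were so to 33.0% to 33.9%. Other genes showed the same split, 54.8% to 57.4% inside and 27.1% to 27.5% outside. Pseudogenes had more H3K9me3 cover than coding genes of the same family in every library: 10.004%, 6.40%, 11.5% and 6.11% against 4.1%, 2.98%, 6.59% and 2.34% for Vmn2r, and 2.65%, 1.44%, 3.50% and 1.30% against 0.87%, 1.16%, 1.99% and 0.80% for Olfr. Vmn1r pseudogenes had 4.40%, 3.46%, 7.53% and 2.49%, and coding Vmn1r genes 1.60%, 1.21%, 2.47% and 0.95%. The Vmn2r pseudogenes include Vmn2r-ps16 and Vmn2r-ps17, models of 160377 and 140140 bp whose windows also hold zinc finger genes. In the same order of libraries, H3K9me3 peaks covered 24.2%, 16.5%, 27.02% and 21.9% of the Vmn2r-ps16 window. For Vmn2r-ps17 the values were 33.3%, 21.8%, 25.8% and 18.95%. The part of such long models in the Vmn2r pseudogene values was not tested.

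Sequence around the annotated start set receptors apart as well. In the 300 bases around the start (250 before and 50 after), taken from RefSeq for 1272 entries of receptor genes, the median was 1 CpG and 35.7% GC. For 31579 entries of other genes it was 8 CpG and 53.3% GC. The entries were neither limited to chromosomes 1 to 19 nor reduced to 1 per gene. The 300-base stretches are called promoters here. They include 948 of Olfr and 206 of Vmn1r genes, for many of which the annotated start is the start codon and not the promoter. The G4 motif, searched on both strands, was found in 0.943% of receptor promoters and in 18.6% of all 32851 promoters. At G4 peaks the picture was different. The motif lay in the central 300 bases of 22.9%, 16.8%, 25.1% and 19.6% of the G4 peaks in receptor windows. For other genes, where every 20th peak was taken, the shares were 28.1%, 16.3%, 25.7% and 17.7%. The receptor share of G4 peaks was the lower one in 2 of the 4 libraries and the higher one in the others. Of 300-base stretches along the windows, 2.92% held the motif in receptor genes and 5.41% of those sampled in other genes.

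Receptor genes that kept a peak in all 4 libraries were few, and their counts are given beside the share of all 46709 genes that met the same rule. H3K9me3 peaks recurred in all 4 libraries in 72 receptor genes (3.54%), 44 of them Vmn2r, against 7.74% of all genes. For Vmn2r that is 17.6% of the family, for Vmn1r 2.19% and for Olfr 1.41%. ATRX peaks recurred in 6 genes, all Vmn2r, against 1.58% of all genes, G4 peaks in 107 (5.26%) against 42.3%, and ATAC peaks in 90 (4.42%) against 49.2%. The background counts are not matched for gene length, which is shorter in Olfr and Vmn1r genes. With peaks of a −log10 p of at least 5 only, the counts were 19 for H3K9me3, 1 for ATRX, 28 for G4 and 70 for ATAC. Over the members without another gene in the window H3K9me3 gave 47 and ATRX 1. The share of all genes was not counted under these settings, so these counts have no background beside them.

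The genes with the highest mean H3K9me3 cover came from all 3 families. Olfr817-ps1 (chromosome 10, 129929543 to 129930481, minus strand), an odorant receptor pseudogene, had 73.5% and 48.7% of its window under peaks in scramble KD, with 100% and 35.7% in TERRA KD. Olfr1055 (chromosome 2, 86346724 to 86347764) had 68.2%, 12.4%, 100% and 67.8%, and Olfr1388 (chromosome 11, 49443853 to 49444788) 81.7%, 45.3%, 98.9% and 18.9%, both coding for odorant receptors. In these genes the replicate 1 libraries held 1 long peak each and the replicate 2 libraries shorter ones.

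At Olfr1388 the peak was 10766 bp long with 500 tags in scramble KD replicate 1 and 12840 bp long with 706 tags in TERRA KD replicate 1. In replicate 2 it was 1497 bp in scramble KD, and TERRA KD had 1 peak of 446 bp and 1 of 2213 bp. The same gene carried an ATAC peak in all 4 libraries, 430 to 673 bp long, on the repeat shown above, so that an ATAC peak and an H3K9me3 peak of one locus overlapped. The line is a hybrid and its alleles were not separated, so marks on the same allele and marks on different ones cannot be told apart.

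The other genes of this set were Vmn2r-ps89 (81.2%, 33.7%, 87.0% and 49.3%), Vmn1r-ps123 (95.4%, 18.7%, 100% and 25%) and Olfr783-ps1 (94.9%, 27.1%, 100% and 13.5%), all pseudogenes. The window of Vmn2r-ps89 also holds Cers4, a ceramide synthase gene, and the windows of the other 5 genes hold no other gene. All 6 had their highest value in TERRA KD replicate 1, which is also the library with the highest cover of receptors as a whole.

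Of the 90 receptor genes with an ATAC peak in all 4 libraries, 47 were Vmn2r, 37 Olfr and 6 Vmn1r genes. Of the 6 best ranked, 5 were Vmn2r genes. Vmn2r29 (chromosome 7, 7212996 to 7278289, minus strand) ranked best, with a peak at its start of 834 to 1048 bp and a pileup of 84 and 71 in scramble KD, against 63 and 69 in TERRA KD. Vmn1r4 (chromosome 6, 56923914 to 56957608) had a peak at its start of 1000 to 1120 bp with a pileup of 69, 80, 63 and 74, and its window also holds Nt5c3, a gene of nucleotide metabolism. The Vmn2r29 window also holds Gm18190, and to which gene either peak belongs was not tested. Both peaks lay within the top 1.19% of their lists in every library.

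Vmn2r85 (chromosome 10, 130418261 to 130429612, minus strand) had no other gene in its window and 1 ATAC peak in each library, of 47, 49, 45 and 55 pileup, within its gene body. Vmn2r-ps23, Vmn2r-ps16 and Vmn2r-ps11 are pseudogene or transcribed pseudogene models of 153426, 160377 and 211881 bp. The window of Vmn2r-ps23 also holds 5430403G16Rik. The window of Vmn2r-ps16 held 14, 19, 14 and 19 ATAC peaks and includes 3 zinc finger genes, Zfp992, Zfp981 and Zfp993, from a family that holds many repressors of transposons. To which of the genes in such a window a peak belongs was not tested.

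The 6 genes with ATRX in all 4 libraries were Vmn2r29, Vmn2r-ps17, Vmn2r77, Vmn2r-ps16, Vmn2r24 and Vmn2r-ps98. Vmn2r29 led, and its ATRX peak at the gene start held 164 and 98 tags in scramble KD, with 340 and 116 in TERRA KD, within the top 0.454% of each list. Tag counts are not scaled to depth, so they are not compared between libraries. The CpG-rich stretch printed for Vmn2r29 lies in it, and the ATAC peaks of the same gene overlapped it in all 4 libraries.

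Vmn2r77 (chromosome 7, 86795141 to 86812032) had a single ATRX peak per library at one place, with 14 tags in each scramble KD library and 32 and 16 in TERRA KD. The Vmn2r24 peaks did not all lie together: those of scramble KD and TERRA KD replicate 1 overlapped each other just past the end of the gene, and those of the replicate 2 libraries lay apart from them and from each other. With −log10 p of at least 5, 1 of the 6 genes still had ATRX in all 4 libraries.

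G4 peaks of all 4 libraries were best ranked in Vmn2r-ps17, Vmn2r-ps16, Vmn2r-ps54, Olfr270, Vmn2r-ps15 and Vmn2r114. Olfr270 (chromosome 4, 52970629 to 52971567) was the only Olfr gene among them, with a G4 peak of 612, 558, 578 and 577 bp upstream of its start, 19, 54, 23 and 33 tags, and no peak of any other assay in any library. The repeat of tctgcc printed above lies in the middle of it. Vmn2r114 (chromosome 17, 23290934 to 23312313, minus strand) had G4 in 4 and H3K9me3 in 4 libraries and neither ATRX nor ATAC in any. Of the 107 receptor genes with G4 in all 4 libraries, 71 had a stretch common to the 4 libraries, and 22 of these (31.0%) held the motif in it.

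The windows of Vmn2r-ps15 (74243 bp), Vmn2r-ps16 and Vmn2r-ps17 (140140 bp) lie near each other on chromosome 4 and hold zinc finger genes, among them Zfp980, Zfp987 and Zfp600. In these windows 80.7%, 42.1% and 66.8% of the sampled 150-base stretches occurred more than once in the genome.

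Clusters were runs of olfactory or of vomeronasal genes with gaps of up to 500 kb, which gave 118 clusters, of which 40 had at least 10 genes and held 1836 genes, and 41 were single genes. Over the 40 large clusters, the mean H3K9me3 cover of the gene windows had a median of 1.61%. The 16 vomeronasal clusters had a median of 3.87% and the 24 olfactory clusters one of 0.963%. H3K9me3 was found in all 4 libraries in 30 of the 40 clusters and in none of the libraries in 1.

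The 4 highest were all vomeronasal. The Vmn1r cluster from Vmn1r-ps25 to Vmn1r54 (chromosome 6, 89697657 to 90271053, 23 genes) had 7.30%, 7.02%, 11.5% and 4.18%, a mean of 7.5% ± 3.02 (SD, n = 4 libraries). The cluster from Vmn2r-ps95 to Vmn2r-ps109 on chromosome 13, made of 13 pseudogenes, had a mean of 7.15% ± 1.94, that from Vmn2r8 to Vmn2r-ps23 on chromosome 5 one of 6.16% ± 2.95, and that from Vmn2r-ps3 to Vmn2r-ps13 on chromosome 3 one of 5.57% ± 3.07. The ranges of these 4 clusters over the libraries overlapped.

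At the other end stood olfactory clusters and 1 large vomeronasal one. The cluster of 99 Vmn1r genes from Vmn1r91 to Vmn1r183 on chromosome 7, the largest vomeronasal cluster, had 0%, 0.151%, 0% and 0%, with a peak in 1 gene in a single library. The 18 odorant receptor genes from Olfr310 to Olfr292 on chromosome 7 had none in any library, the 10 from Olfr1358 to Olfr57 on chromosome 10 a mean of 0.178% and the 91 from Olfr1417 to Olfr1505 on chromosome 19 a mean of 0.352% ± 0.281. The Vmn1r genes of the chromosome 7 cluster and those of the chromosome 6 cluster above belong to the same receptor family, so the cover differed between clusters of one family, and the lowest library of the chromosome 6 cluster (4.18%) lay above the highest of the chromosome 7 cluster (0.151%). The largest cluster, 293 odorant receptor genes from Olfr987 to Olfr1274 on chromosome 2, had 0.582%, 0.884%, 1.27% and 0.575%.

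Among olfactory clusters, the highest mean cover was that of 29 genes from Olfr722 to Olfr750 (chromosome 14, 49893258 to 51072442), with 1.64%, 1.89%, 9.08% and 3.74%. It was followed by 69 genes from Olfr9 to Olfr827 on chromosome 10, the cluster that holds Olfr817-ps1, Olfr783-ps1 and Olfr1544-ps1, with 4.08%, 3.15%, 5.42% and 2.47%. TERRA KD replicate 1 was the highest library in both clusters, and the other libraries of the chromosome 14 cluster did not exceed 3.74%.

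**Figure D4:**
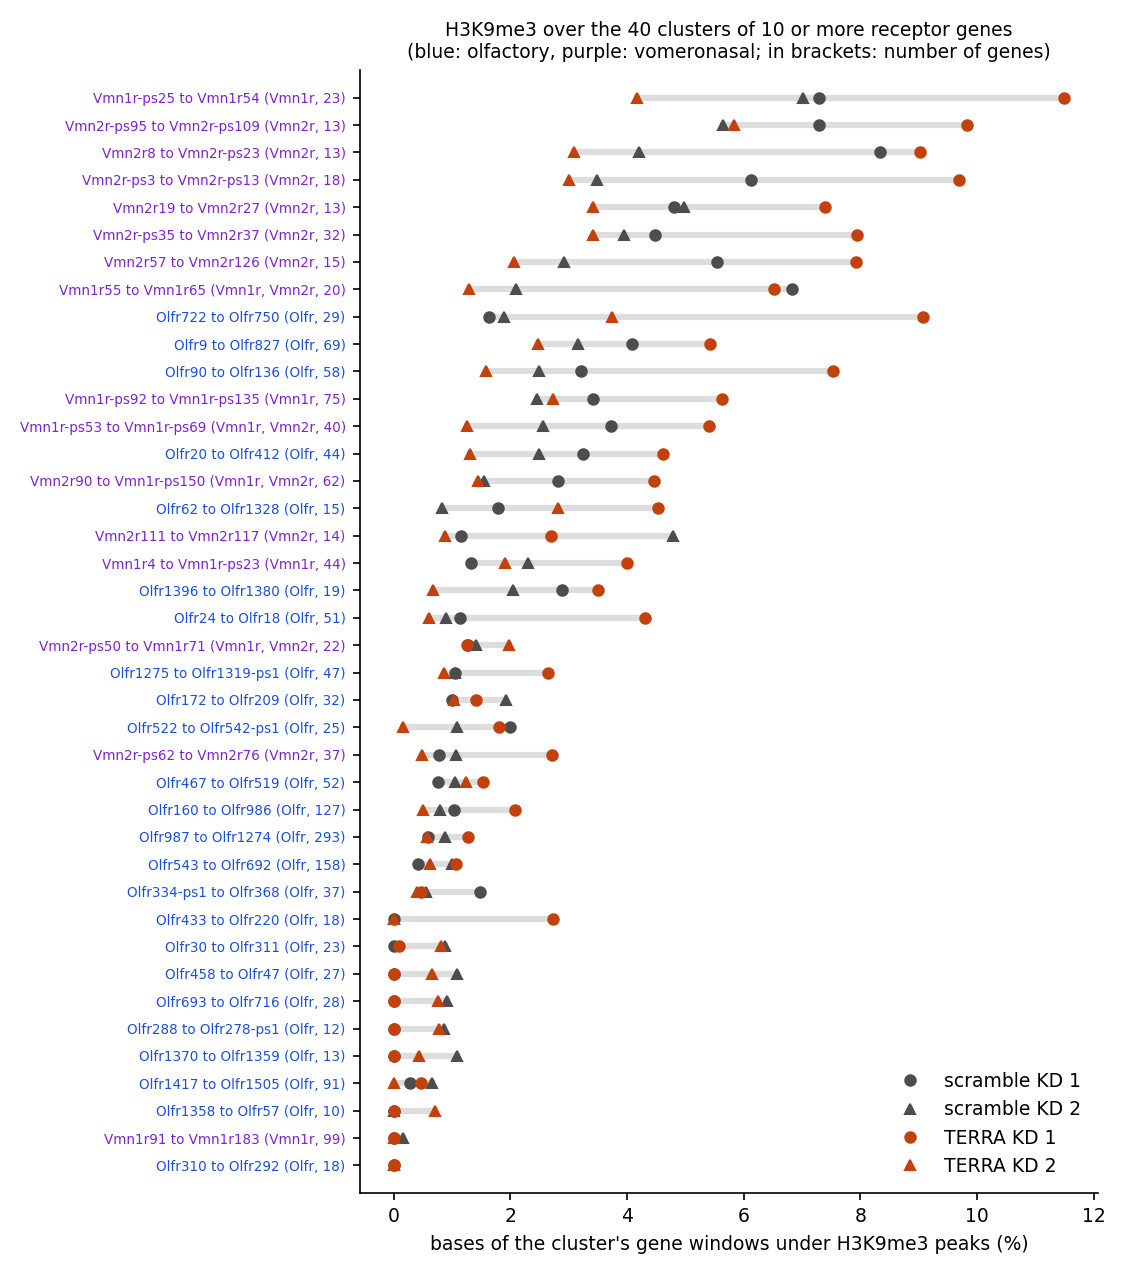
Percent of the bases of a cluster's gene windows under H3K9me3 peaks (x axis) for the 40 clusters of at least 10 genes (rows, ordered by their mean, olfactory in blue and vomeronasal in purple), 1 point per library and a grey bar from the lowest to the highest. The top 4 rows are vomeronasal clusters with means of 5.57% to 7.5%, and the TERRA KD replicate 1 point lies farthest right in most rows.

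Between conditions, the replicate numbers went opposite ways for ATRX, H3K9me3 cover and G4 and the same way for ATAC. The number of receptor genes with an ATRX peak was 40 and 91 in scramble KD, against 99 and 57 in TERRA KD, so the TERRA KD count was higher in replicate 1 and lower in replicate 2. The mean share of receptor genes was 3.22% ± 1.77 in scramble KD and 3.83% ± 1.46 in TERRA KD (SD, n = 2), a difference of 0.614 percentage points that was smaller than the spread (exact permutation test, two-sided, p = 0.667, where 0.33 is the smallest possible). Among other genes the scramble KD libraries had ATRX peaks in 3222 and 4299 genes, and the TERRA KD libraries in 12337 and 8774, with no overlap of the conditions.

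H3K9me3 cover of the receptor windows had a mean of 3.26% ± 0.73 in scramble KD and 3.84% ± 2.15 in TERRA KD, a difference of 0.583 points with p = 1 by the same exact permutation test. An H3K9me3 peak was present in 124 and 263 receptor genes in scramble KD, against 175 and 200 in TERRA KD. Of the 40 large clusters, 29 had more H3K9me3 cover in TERRA KD in replicate 1 and 7 in replicate 2, and 5 did in both. ATRX behaved likewise, with more cover in TERRA KD in 30 clusters in replicate 1 and in 11 in replicate 2.

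For G4 the numbers of receptor genes with a peak were 233 and 510 in scramble KD, against 249 and 327 in TERRA KD, a difference in the mean share of −4.1 points (exact permutation test, p = 1). Scramble KD replicate 2, the library with 510 genes, is also the deepest G4 library, and without it the difference was 2.70 points. For ATAC they were 119 and 144 in scramble KD, against 133 and 160 in TERRA KD, a difference of 0.737 points with overlapping conditions (exact permutation test, p = 0.667), higher in TERRA KD in both replicate numbers. None of these 4 differences came to 0.33.

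The lists differ in length, and when the longer list of each replicate number was shortened to the best-ranked peaks the ATRX difference in the share of genes turned. The scramble KD libraries then had ATRX in 40 and 91 receptor genes, and the TERRA KD libraries in 20 and 41, lower in both replicate numbers, a difference of −1.72 points in the mean share (exact permutation test, p = 0.667). By covered bases the replicate numbers still went opposite ways. ATRX covered 0.162% and 0.681% of the receptor windows in scramble KD, against 0.287% and 0.226% in TERRA KD. Other genes with ATRX then numbered 3222 and 4299 in scramble KD, against 2474 and 6221 in TERRA KD, so that in TERRA KD they were also fewer in replicate 1 and more in replicate 2. H3K9me3 was found in 120 and 259 receptor genes against 175 and 200, G4 in 233 and 333 against 203 and 327, and ATAC in 119 and 144 against 123 and 151. For G4 the difference in the mean share shrank to −0.885 points and for ATAC to 0.27 points.

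**Figure D5:**
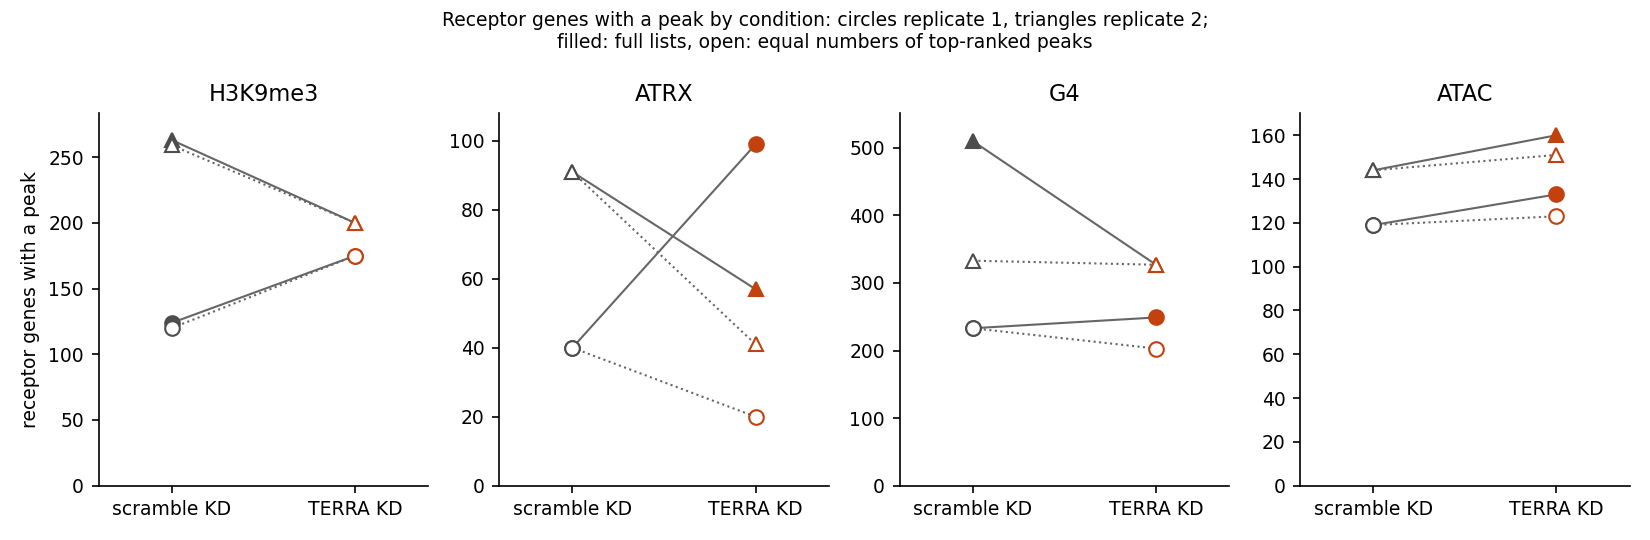
Number of the 2035 receptor genes with a peak (y axis) in scramble KD and TERRA KD for each assay, with lines joining libraries of the same replicate number (circles replicate 1, triangles replicate 2), from the full lists (filled) and from equal numbers of top-ranked peaks (open). For ATRX the full lists run in opposite directions (40 to 99 and 91 to 57), and the equal lists both run down (40 to 20 and 91 to 41).

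Peaks in both libraries of one condition and in neither of the other were rare. For ATRX, 8 receptor genes (0.393%) had peaks in both TERRA KD and neither scramble KD library, against 5.73% of all genes, and 4 (0.197%) had the reverse, against 0.214% of all genes. For H3K9me3 the counts were 8 and 1 (0.435% and 0.415% of all genes), for G4 7 and 14 (0.197% and 1.49%) and for ATAC 3 and 1 (0.799% and 0.291%). With a −log10 p of at least 5, no receptor gene met either rule for ATRX. The share of all genes was not counted at that threshold.

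The 8 genes with ATRX in TERRA KD only were Vmn2r-ps94, Olfr1544-ps1, Vmn2r82, Vmn2r83, Vmn2r25, Vmn2r65, Olfr373 and Vmn2r43. The peaks of the 2 libraries overlapped each other in Vmn2r-ps94, Olfr1544-ps1 and Olfr373 and lay apart in the others, whose peaks held 4 to 25 tags. At Olfr1544-ps1 (chromosome 10, 129925115 to 129925417, minus strand), TERRA KD replicate 1 had peaks of 10 and 16 tags and replicate 2 one of 12 tags, and the gene had H3K9me3 in all 4 libraries. It lies near Olfr817-ps1, the gene with the highest H3K9me3 cover.

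At Olfr373 (chromosome 8, 72099762 to 72100706), an odorant receptor gene, the peaks held 11 and 12 tags with fold enrichments over input of 5.01 and 4.83, and overlapped G4 and ATAC peaks that were present in all 4 libraries. It had no H3K9me3 peak in any library. At Vmn2r-ps94 (chromosome 13, 33766992 to 33811610) the peaks held 8 and 10 tags in replicate 1 and 17 in replicate 2.

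The 4 genes with ATRX in scramble KD only were Vmn2r125, Olfr460, Vmn1r7 and Vmn2r126. At Olfr460 (chromosome 6, 40569152 to 40572504) the peaks of both libraries held 10 tags each and shared the stretch printed above. At Vmn1r7 (chromosome 6, 57024338 to 57025273, minus strand) they held 6 and 18 tags and also overlapped, while those of Vmn2r125 and Vmn2r126 lay apart. Chromosome 6 held 9.83% to 18.7% of the autosomal ATRX peaks and 6.3% to 7.8% of the G4 peaks, and chromosome 8 held 8.84% to 16.2% and 6.38% to 7.1%, and without both chromosomes 2 of the 4 genes were left. The peaks of the 4 genes held 5 to 18 tags.

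Many genes that act with the receptors carried G4 and ATAC peaks. Of 18 genes fixed by their known role, 10 in signal transduction (among them Adcy3, the adenylyl cyclase, and Cnga4 and Cngb1, channel subunits), 3 in receptor transport (Rtp1, Rtp2 and Ric8b) and 5 in receptor choice and neuron identity (Lhx2, Ldb1, Ebf1, Lbr and Kdm1a), all 18 had a G4 peak in all 4 libraries and 15 an ATAC peak, 11 of these at the start. Of all genes, 42.3% had G4 and 49.2% ATAC in all 4 libraries, a background not matched for gene length. The scramble KD libraries each had ATRX in 3 of the 18, and the TERRA KD libraries in 11 and 8. The share of other genes with ATRX was likewise higher in TERRA KD, 27.6% and 19.6% against 7.21% and 9.62%. H3K9me3 was found in all 4 libraries in 1 of the 18, against 7.74% of all genes. This was Rtp2, which helps to bring odorant receptors to the cell surface, with 34.9% and 13.4% of its window covered in scramble KD, against 66.0% and 21.5% in TERRA KD.

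Peaks were also counted in other families of chemoreceptor genes. Of all genes, 61.6% had an ATAC peak in at least 1 library, 30.2% an H3K9me3 peak and 82.8% a G4 peak. This background is not matched for gene length. Of the 16 trace amine-associated receptor genes (Taar), 2 had an ATAC peak in any library and 2 an H3K9me3 peak, and 13 had a G4 peak, all 13 of them in scramble KD replicate 2. Of the 8 formyl peptide receptor genes (Fpr), some of which serve the vomeronasal organ, none had an ATAC peak in any library, and 1, Fpr3, had H3K9me3.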

How the data were processed

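ATRX, H3K9me3, G4 and ATAC peaks were read from 16 deposited lists, 1 per library, called by the authors on mm10 at a p of 0.01. The submitters' processing notes name Trim Galore 0.5.0, Bowtie2 2.3.4.1, SAMtools 1.9, deepTools 3.1.1 and MACS2, and per the file headers ATRX and H3K9me3 peaks came from MACS 1.4.3, G4 peaks from MACS 1.4.2, each against input, and ATAC peaks from MACS 2.2.7.1 without input. The study's methods give the default setting for Bowtie2 and the removal of duplicates. The deposited lists give the count of tags in each peak, a score made from its p, the fold enrichment as a ratio to the background, the −log10 of the p and, for ATAC, the pileup signal at the summit. None of these was scaled between libraries by the authors, so peaks were ranked by p within their list.

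Gene windows came from RefSeq on GRCm38, whose chromosomes match mm10. A peak counted for a gene when it shared at least 1 bp with its window. Covered bases were counted once where windows or peaks overlap, and neighbouring windows can share a peak. The conditions were compared by an exact permutation test, two-sided, of 2 against 2 samples (smallest p 0.33), and receptor with other genes by a two-sided exact sign-flip permutation test on the log2 ratio within each of 4 libraries (smallest p 0.13). Genes entered no test. Repeats are the soft-masked bases of the reference.

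Genes were named by rule, none from chromosome 18: the 6 with the highest mean H3K9me3 cover, up to 8 with ATRX in TERRA KD only, up to 4 in scramble KD only, and the 6 best ranked with ATAC, G4 or ATRX in all 4 libraries, and the 4 clusters with the highest and the 4 with the lowest H3K9me3 cover. They were chosen by these values, which are therefore descriptions. The members, lists and rules were chosen with earlier results of these data known. Alternatives changed the window, the overlap, the threshold, the length of the lists, the genes, the cluster gap, the libraries and the pairing. Python 3.11.15, numpy 2.4.6, pandas 2.3.3, scipy 1.17.1 and matplotlib 3.10.9 were used, and the counting was tested on simulated peaks.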

Additional observations from a re-analysis of the deposited data

How the results depend on the processing

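Of 111 alternative values of the condition differences, covered-base ratios and clusters, 99 kept their direction and 12 turned. The ratio of receptor to other genes for H3K9me3 (0.99) turned within 1 kb of the gene start (−0.23). That for ATRX (0.05) turned at the gene start (−0.83), for protein-coding genes (−0.11), for members with no other gene in the window (−0.45) and without members longer than 50 kb (−0.38), these last settings, like leaving out chromosomes 6 and 8, chosen after seeing the data. With a −log10 p of at least 5 it was 1.19, and for vomeronasal over olfactory H3K9me3 the ratio of 1.92 was 3.02. The ATRX share (0.614 points) turned with lists of equal length (−1.72). The causes were not tested.

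Leaving out each library in turn, the difference ran from −0.639 to 1.87 points for ATRX (turned without scramble KD replicate 1, −0.639, and without TERRA KD replicate 1, −0.418), from −0.938 to 2.10 for H3K9me3 (turned without TERRA KD replicate 1), from −10.9 to 2.70 for G4 (turned without scramble KD replicate 2) and from 0.0737 to 1.4 for ATAC. The log2 ratio of receptor to other genes ran from −0.34 to 0.42 for ATRX (turned without scramble KD replicate 1, −0.02, and without scramble KD replicate 2, −0.34), from 0.91 to 1.06 for H3K9me3, from −1.85 to −1.59 for G4 and from −1.85 to −1.84 for ATAC, and vomeronasal over olfactory genes from 1.81 to 2.00. Of 60 counts of receptor genes under other settings, 21 moved by over 1.5 times. The share of all genes meeting the same rules was not counted under these settings. With a −log10 p of at least 5, H3K9me3 fell from 72 to 19 genes in all 4 libraries and from 8 to 3 in TERRA KD only and went from 1 to 2 in scramble KD only, ATRX went from 6 to 1, from 8 to 0 and from 4 to 0, G4 from 107 to 28 in all 4 and from 14 to 7 in scramble KD only, and ATAC from 1 to 3 in scramble KD only. Without the flanks, TERRA KD only went from 8 to 5 for H3K9me3 and from 7 to 3 for G4, and scramble KD only from 14 to 7 for G4. Over protein-coding genes, all 4 libraries gave 43 for H3K9me3, 3 for ATRX and 56 for ATAC, TERRA KD only 5 for H3K9me3 and 1 for G4, and scramble KD only 0 for ATAC. Without chromosomes 6 and 8, scramble KD only gave 2 for ATRX, and members with no other gene in the window gave 47 for H3K9me3 and 1 for ATRX in all 4. Joining genes up to 1 Mb apart gave 107 clusters, and the median of the large ones was 1.74%.

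With the replicate block, the differences of 0.614, 0.583, −4.1 and 0.737 points were the same. Exact sign-flip tests over 2 pairs, whose smallest p is 0.5, gave 1 for ATRX, H3K9me3 and G4 and 0.5 for ATAC. With 2 samples per condition no call was possible with or without the block, so it could change none. Over 2470 stretches of 1 Mb, deviations from the condition mean correlated between libraries of the same number by 0.297 for H3K9me3, −0.0052 for ATRX, 0.519 for G4 and 0.13 for ATAC.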

Other observations

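The rule leaves out 30 receptor genes on the sex chromosomes, 10 on X and 20 on Y in the reference. No peak of any assay was found in 28 of them. In TERRA KD replicate 2, ATRX was found in Olfr1320, and in scramble KD replicate 2 G4 was found in Olfr1322. None had H3K9me3 or ATAC. The line is female, so the 20 genes on Y could carry no reads of their own.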
